A study of Mus musculus with 11 samples.

Results

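Platelets are cell fragments shed by megakaryocytes, which in the mouse reside in bone marrow, spleen and also lung. They carry α granules filled with chemokines, adhesive proteins and clotting factors, and they aggregate through the fibrinogen receptor αIIbβ3. Carcinoma cells that enter the blood are known to bind platelets, and platelet chemokines are known to attract neutrophils. The genes *Ppbp*, *Itga2b*, *Itgb3*, *Thbs1* and *F13a1* of this compartment were taken by name from the deposited table, and all 5 were found among its 770 genes. *Ppbp* encodes the precursor of CXCL7, an α granule chemokine that binds CXCR2 on neutrophils. *Itga2b* encodes the αIIb integrin chain (CD41), which is largely restricted to megakaryocytes and platelets. *Itgb3* encodes the β3 chain (CD61), the partner of αIIb, which also pairs with αv in other cells. *Thbs1* encodes thrombospondin-1, an α granule protein also made by macrophages, fibroblasts and endothelium. *F13a1* encodes the A subunit of factor XIII, a transglutaminase that crosslinks fibrin and is also made by monocytes and macrophages.

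Expression was measured in 11 lungs of female BALB/c mice, 6 given antiChemR23 (mice 9, 10, 13, 14, 15 and 16), an agonist antibody to the chemerin receptor ChemR23, and 5 given the control antibody hIgG1 (mice 3, 4, 6, 7 and 8). All mice had been injected at 8 weeks of age in the mammary fat pad with 4T1-luc2 cells, a luciferase-expressing mammary carcinoma line. Both antibodies were given at 1 mg/kg with 3 doses per week over 3 weeks, starting on day 7 and ending on day 28. The primary tumor was resected on day 13 in both groups. Each lung was dissociated into single cells before RNA extraction, and 1 lung sample stood for 1 mouse. No lung of a mouse without tumor was part of the series. Groups follow the sample labels, whose group sizes of 6 and 5 differ from those in the series' design text. The treatment of at least 1 lung may therefore be in doubt, and no other assignment of lungs was tested. Lungs were taken when each mouse was euthanized, on a day not stated per mouse, so the day of collection and the treatment cannot be told apart.

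Levels were log2 normalized counts from nCounter, in which barcoded probes on single RNA molecules are counted without amplification. Totals were 526091 to 715706 normalized counts per antiChemR23 lung and 580102 to 667587 per hIgG1 lung. The 5 genes lay well above the lowest value of each lung, which was 8.85 to 16.2 normalized counts. They corresponded to an estimated 98.0 to 632 raw counts per gene and lung, which gives a counting error of 0.057 to 0.15 on the log2 scale. All of them were among the 657 genes tested, the ones averaging 20 or more normalized counts. *Cxcl15*, a chemokine of lung epithelium, was abundant in the lungs, at 14.52 ± 0.19 log2 normalized counts in antiChemR23 lungs and 14.43 ± 0.18 in hIgG1 lungs (SD, n = 6 and 5). Epithelial genes differed widely in level, with a mean of 22994 normalized counts for *Cxcl15* and 420 for *Epcam*. The platelet-defining markers *Pf4*, *Gp1ba*, *Gp1bb*, *Gp5*, *Gp6*, *Gp9*, *Treml1* and *Clec1b* were not analysed here. Platelet RNA in these lungs could thus be followed only through the 5 genes and the list of others below, which includes genes of other cells. In RNA of dissociated lungs, fewer platelets or megakaryocytes recovered and less RNA per cell cannot be told apart.

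The stretches just upstream of *Ppbp* and *Itga2b* are shown because these 2 genes had the highest correlation among the 5 over the 11 lungs, as described below. They are the 250 bases before the annotated start in RefSeq (GRCm38.p6), read 5′ to 3′ on the strand of the gene. *Ppbp* is at chr5:90768268-90768517 on the plus strand and *Itga2b* at chr11:102469884-102470133 on the minus strand. Capitals mark TATAAA, the core of the TATA box, searched on the strand of the gene, and AGGAAG, a core bound by ETS factors, searched on both strands.
Ppbp: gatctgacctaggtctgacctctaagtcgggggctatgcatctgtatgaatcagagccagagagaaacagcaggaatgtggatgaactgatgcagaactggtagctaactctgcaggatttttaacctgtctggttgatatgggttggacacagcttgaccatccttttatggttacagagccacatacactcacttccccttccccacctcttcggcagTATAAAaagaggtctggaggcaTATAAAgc
Itga2b: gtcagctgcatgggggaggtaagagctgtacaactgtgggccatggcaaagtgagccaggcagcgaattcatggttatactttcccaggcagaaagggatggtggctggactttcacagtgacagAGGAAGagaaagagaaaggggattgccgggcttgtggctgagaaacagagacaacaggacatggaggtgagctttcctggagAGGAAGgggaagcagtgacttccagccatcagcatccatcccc
The *Ppbp* stretch held TATAAA at -30 and -8 from the start and no AGGAAG, while the *Itga2b* stretch held AGGAAG at -125 and -43 and no TATAAA. Of 32851 upstream stretches of the same length, 7.59% held TATAAA and 29.5% AGGAAG. The GATA motifs TGATAA and AGATAA, searched on both strands, were in neither, against 7.94% and 9.99% of all stretches. These matches describe letters only, and the motifs found did not overlap each other. *F13a1* had 2 starts in the same source, and *Itgb3* and *Thbs1* were not matched there.

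The first question was whether the antibody changed these genes in the lung. *Ppbp*, *Itga2b*, *Itgb3* and *Thbs1* had a lower mean and *F13a1* a higher mean in antiChemR23 lungs, by 1.06-fold (*Thbs1*) to 1.29-fold (*Itga2b*), and 0 of the 5 passed an adjusted p of 0.05 by limma over 657 genes. Of all 657 genes, 0% passed, and 9.89% had an unadjusted p under 0.05, of which 47 (7.15% of all) were higher and 18 (2.74%) lower in antiChemR23 lungs. Quantile normalization gave 26 higher and 32 lower. Of the 5 genes, 0 had an unadjusted p under 0.05 in this fit. *F13a1* had one of 0.026 with equal medians, 0.043 with quantile normalization and 0.025 with array weights in limma (adjusted p of 0.480, 0.542 and 0.385). Leaving out antiChemR23 mouse 10 gave *Itga2b* a limma difference of -0.51 (unadjusted p = 0.014, adjusted p = 0.389). *Ppbp* then differed by -0.335 (unadjusted p = 0.033, adjusted p = 0.517). For *F13a1*, the unadjusted limma p was 0.013 without antiChemR23 mouse 15, 0.040 without hIgG1 mouse 4 and 0.038 without hIgG1 mouse 7. A lower mean, as in 4 of the 5, was found for 42.6% of all genes, and a higher one, as for *F13a1*, for 57.4%.

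**Figure D1:**
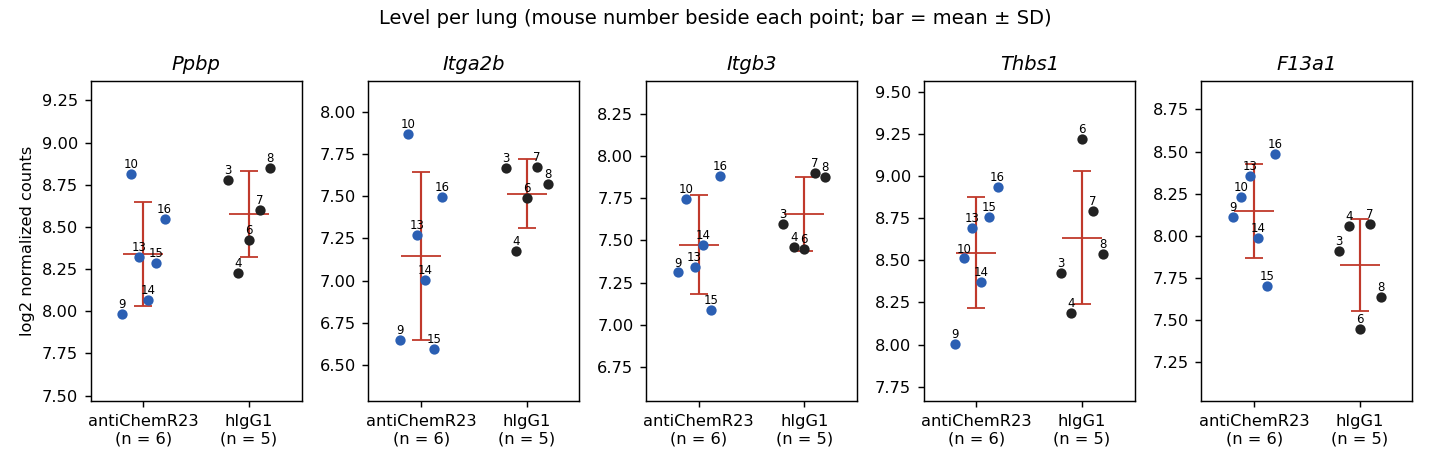
Level of each of the 5 genes (vertical axis, log2 normalized counts, same span in each panel) in antiChemR23 lungs (n = 6) and hIgG1 lungs (n = 5), with 1 point per lung, the mouse number above it, and bars for mean ± SD. The groups overlap for every gene, and antiChemR23 mice 9 and 15 are the lowest for *Itga2b*, at 6.64 and 6.60.

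*Ppbp*, the chemokine precursor, was at 7.98 to 8.82 log2 normalized counts in antiChemR23 lungs (median 8.30). In hIgG1 mice 3, 4, 6, 7 and 8 it was at 8.78, 8.23, 8.43, 8.60 and 8.85. The antiChemR23 lungs of mice 9 and 14 were below all hIgG1 lungs, and antiChemR23 mouse 10 reached the level of the highest ones. The means were 8.34 ± 0.31 in antiChemR23 lungs and 8.58 ± 0.25 in hIgG1 lungs (SD, n = 6 and 5), a log2 difference of -0.24 (standard error 0.16, 95% interval -0.58 to 0.10, adjusted p = 0.557 from limma).

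*Itga2b*, the most lineage-restricted of the 5, was at 6.60 to 7.87 in antiChemR23 lungs (median 7.13). In the 5 hIgG1 lungs, in the same order of mice, it was at 7.67, 7.17, 7.49, 7.68 and 7.57. The antiChemR23 lungs of mice 9, 14 and 15 were below all hIgG1 lungs and that of mouse 10 was above them, so that the antiChemR23 lungs lay on both sides of the control range. The means were 7.15 ± 0.50 in antiChemR23 lungs and 7.52 ± 0.21 in hIgG1 lungs (SD, n = 6 and 5), a log2 difference of -0.37 (standard error 0.21, 95% interval -0.83 to 0.09, adjusted p = 0.495 from limma).

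*Itgb3*, its partner chain, was at 7.09 to 7.88 in antiChemR23 lungs (median 7.41). In hIgG1 lungs it was at 7.60, 7.46, 7.45, 7.90 and 7.87. Again 3 antiChemR23 lungs, here of mice 9, 13 and 15, were below all hIgG1 lungs, and the other 3 were within the hIgG1 range. The log2 difference was -0.18 (standard error 0.15, 95% interval -0.50 to 0.14, adjusted p = 0.688 from limma).

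*Thbs1*, the granule glycoprotein, was at 8.01 to 8.94 in antiChemR23 lungs (median 8.60). In hIgG1 lungs it was at 8.43, 8.19, 9.22, 8.79 and 8.54. The highest lung of the series was that of hIgG1 mouse 6 and the lowest that of antiChemR23 mouse 9, and the rest were intermixed. The log2 difference was -0.09 (standard error 0.19, 95% interval -0.50 to 0.33, adjusted p = 0.923 from limma), and its sign turned without antiChemR23 mouse 9 (0.02) or hIgG1 mouse 6 (0.06).

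*F13a1*, the factor XIII subunit, was at 7.70 to 8.49 in antiChemR23 lungs (median 8.17). In hIgG1 lungs it was at 7.91, 8.06, 7.45, 8.07 and 7.64. The antiChemR23 lungs of mice 9, 10, 13 and 16 were above all hIgG1 lungs, whereas 2 hIgG1 lungs (mice 6 and 8) were below all antiChemR23 lungs. The means were 8.15 ± 0.28 in antiChemR23 lungs and 7.83 ± 0.27 in hIgG1 lungs (SD, n = 6 and 5), a log2 difference of 0.32 (standard error 0.15, 95% interval -0.01 to 0.65, adjusted p = 0.495 from limma). *F13a1* had the smallest limma p of the 5 genes, ranked 76 of 657.

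An exact two-sided permutation test of single genes gave p = 0.197 for *Ppbp*, 0.158 for *Itga2b*, 0.294 for *Itgb3*, 0.695 for *Thbs1* and 0.0931 for *F13a1*, and the smallest p that 6 against 5 lungs allow is 0.00216. The groups overlapped for all 5 genes, as for all but 1.07% of tested genes. The intervals left room for a fall of *Itga2b* by 0.83 or a rise of *F13a1* by 0.65 on the log2 scale.

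**Figure D2:**
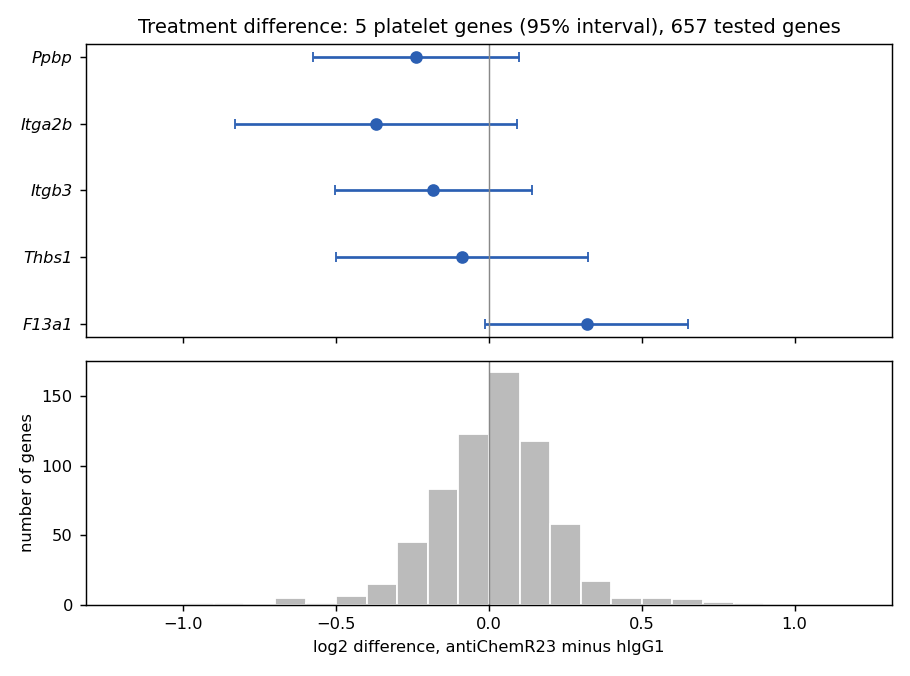
Top, log2 difference (antiChemR23 minus hIgG1, horizontal axis) of each of the 5 genes with its 95% interval from limma. Bottom, number of genes per 0.1 of log2 difference among all 657 tested genes. Every interval includes 0, and *Itga2b* (-0.37) and *F13a1* (0.32) lie toward opposite ends of the distribution.

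The spread between lungs was larger than counting error. Over the 11 lungs, *Itga2b* spanned 2.42-fold and had an SD of 0.42 on the log2 scale, larger than that of 87.1% of tested genes. *Thbs1* spanned 2.32-fold, *F13a1* 2.05-fold, *Ppbp* 1.82-fold and *Itgb3* 1.76-fold. Most of the spread of *Itga2b* was in the antiChemR23 lungs, where its SD was 0.50, against 0.21 in hIgG1 lungs, a difference that was not tested.

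Over the 11 lungs, the 3 pairs among *Ppbp*, *Itga2b* and *Itgb3* had the highest correlations of the 10 pairs, with an unadjusted permutation p under 0.05 each, and 0 of the 10 pairs passed an adjusted p of 0.05 as limma slopes over 656 genes. The difference between these correlations and those of *Thbs1* and *F13a1* was not tested. *Ppbp* and *Itga2b* had Pearson's r = 0.86 over the 11 lungs (permutation p = 0.0008) and Spearman's rho = 0.88 (permutation p = 0.00058). *Itga2b* and *Itgb3*, the chains of 1 receptor, had r = 0.81 (permutation p = 0.0025) and rho = 0.81 (permutation p = 0.0038). *Ppbp* and *Itgb3* had r = 0.71 (permutation p = 0.016) and rho = 0.69 (permutation p = 0.022). The lung of antiChemR23 mouse 9 was the lowest or next to lowest for each of these 3 genes.

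All 10 pairs were compared, and in the other 7 r was -0.23 (*Thbs1* with *F13a1*) to 0.36 (*Itga2b* with *Thbs1*), with permutation p of 0.278 to 0.821. Without the 2 lungs farthest from the median of the first gene, r was 0.83 for *Ppbp* with *Itga2b*, 0.64 for *Itga2b* with *Itgb3* and 0.61 for *Ppbp* with *Itgb3*. The last 2 then had an exact permutation p of 0.0680 and 0.0783. Within treatment groups, the 3 values were 0.82, 0.78 and 0.66. In the 6 antiChemR23 lungs alone, they were 0.87 (exact permutation p = 0.0264), 0.85 (exact permutation p = 0.0417) and 0.66 (exact permutation p = 0.151). In the same 6 lungs, *F13a1* had r = 0.76 with *Itgb3* (exact permutation p = 0.0778) and r = 0.70 with *Itga2b* (exact permutation p = 0.113), both above that of *Ppbp* with *Itgb3*. No correlation was computed within the 5 hIgG1 lungs. With *S100a8* held fixed, r of the 3 pairs was 0.76 (permutation p = 0.0051), 0.69 (permutation p = 0.019) and 0.55 (permutation p = 0.0792), and that of *Ppbp* with *F13a1* was -0.59 (permutation p = 0.0553).

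As slopes in limma fits over 656 genes, the 3 pairs had adjusted p of 0.0520 to 0.247. At an adjusted p of 0.05, 0 of 656 genes passed with any of the 5 as the predictor (0%), while an unadjusted p under 0.05 was found for 13.7% with *Ppbp*, 20.9% with *Itga2b*, 21.3% with *Itgb3*, 1.68% with *Thbs1* and 9.3% with *F13a1*.

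**Figure D3:**
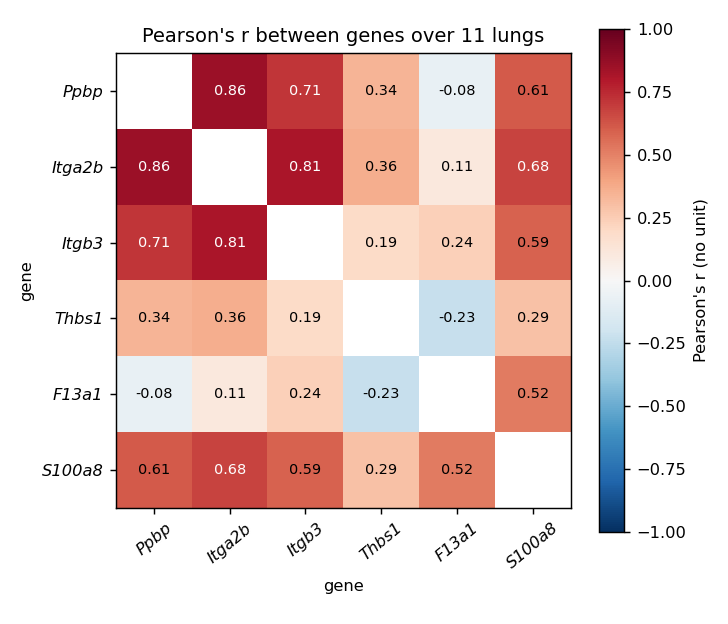
Pearson's r between each pair of the 5 genes and S100a8 over 11 lungs, with both axes listing the genes and color running from -1 (blue) to 1 (red). *Ppbp*, *Itga2b* and *Itgb3* form a block of 0.71 to 0.86, while r of *F13a1* with the other 4 lies between -0.23 and 0.24.

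The genes outside the 5 with the most similar courses are given as a description, by r over the 11 lungs. For *Ppbp* they were *Plaur* (0.80), the urokinase receptor of myeloid cells, *Tal1* (0.77), a transcription factor of megakaryocytes and erythroid cells, and *Irf1* (0.77), an interferon-regulated transcription factor. For *Itga2b* they were *Mcam* (0.87), an adhesion molecule of endothelium and smooth muscle, *Mapk11* (0.84), a p38 kinase, and *Cd244* (0.83), a receptor of NK and myeloid cells. *Itgb3* shared *Mcam* (0.94), followed by *Ptgdr2* (0.88), a prostaglandin D2 receptor, and *H2-T23* (0.87), a nonclassical MHC class I gene.

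*Thbs1* had *Cd59b* (0.80), a complement regulator that lay near the lowest value in some lungs, the fibronectin receptor chain *Itga5* (0.70) and the monocyte chemokine *Ccl2* (0.68). *F13a1* was closest to *Ly96* (0.89), the MD-2 subunit of the endotoxin receptor, *Tollip* (0.85) and *Ifngr1* (0.83), the interferon γ receptor.

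Of 31 other platelet and megakaryocyte genes listed, 10 were measured, and all 10 were tested. In antiChemR23 lungs 6 averaged higher and 4 averaged lower, 0 passed an adjusted p of 0.05, and the median log2 difference was 0.02, against 0.03 over all tested genes. Of these 10, *Pecam1* (mean of 6382 normalized counts) and *Vwf* (2419) are also endothelial genes, so the list does not measure platelet RNA alone. At an unadjusted p under 0.05 were *Itga6*, a laminin receptor chain, and *Runx1*, a transcription factor of megakaryocytes and other blood cells. *Itga6* was at 9.70 ± 0.12 in antiChemR23 lungs and 9.90 ± 0.15 in hIgG1 lungs (SD, n = 6 and 5, adjusted p = 0.483 from limma). *Runx1* was at 9.48 ± 0.06 in antiChemR23 lungs and 9.33 ± 0.12 in hIgG1 lungs (SD, n = 6 and 5, adjusted p = 0.483 from limma).

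*Tal1* was at 7.04 ± 0.15 in antiChemR23 lungs and 7.24 ± 0.12 in hIgG1 lungs, and *Itga2*, a chain of the platelet collagen receptor, at 7.14 ± 0.33 and 7.43 ± 0.16 (SD, n = 6 and 5). Both had an adjusted p of 0.495 from limma. *Vwf*, von Willebrand factor of endothelium and platelets, and *Cd40lg*, the CD40 ligand of T cells and platelets, were the 2 of the 10 whose slope on *S100a8* passed in limma (r = 0.74, adjusted p = 0.0200, and r = 0.84, adjusted p = 0.0044). *Tal1* and *Itga6* had r of 0.82 and 0.74 with *Itga2b*, and *Runx1* one of -0.33. None of them passed as a limma slope on *Itga2b* at an adjusted p of 0.05. Of the 10, 7 had a positive r with *Itga2b*, where 57.7% of all other tested genes did.

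Among 7 measured genes of coagulation and fibrinolysis, of 24 listed, 6 were tested, 3 averaging higher and 3 lower, and 0 passed. *Plau*, the urokinase plasminogen activator, differed by 0.28 (standard error 0.12) and its receptor *Plaur* by -0.27 (standard error 0.15), with adjusted p of 0.483 and 0.495 from limma. *Fn1*, the matrix ligand fibronectin, differed by 0.16 (standard error 0.09) and the thrombin-binding *Thbd* by -0.14 (standard error 0.09). Partners of the 5 gene products were also listed. They were other integrin chains, integrin ligands such as *Fn1* and *Spp1*, thrombospondin receptors, and the ligands and receptors of the CXCR2 axis. Of 15 tested, 9 averaged higher and 6 lower in antiChemR23 lungs, and 0 passed. *Itgb1*, the β1 chain, had the smallest p of these, at 12.70 ± 0.05 in antiChemR23 lungs and 12.56 ± 0.06 in hIgG1 lungs (SD, n = 6 and 5, adjusted p = 0.483 from limma). *Itga5* differed by -0.27 (standard error 0.13) and *Spp1* by 0.27 (standard error 0.15), with adjusted p of 0.487 and 0.495 from limma.

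The second question was how the 5 genes relate to *S100a8*, a calcium-binding alarmin abundant in neutrophils, which took 6.32 to 21.3% of all normalized counts of a lung. *S100a8* was at 15.02 to 17.22 log2 normalized counts in antiChemR23 lungs (median 16.29) and at 16.69, 16.17, 16.14, 16.87 and 16.07 in hIgG1 lungs. Its antiChemR23 lungs lay below (3), within (1) and above (2) the hIgG1 range, and the log2 difference was -0.15 (standard error 0.34, adjusted p = 0.923 from limma).

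All 5 genes had a positive r with *S100a8* over the 11 lungs, as did 62.3% of 656 tested genes. *Itga2b* had the highest, r = 0.68 (permutation p = 0.022) and rho = 0.77 (permutation p = 0.0077). *Ppbp* had r = 0.61 (permutation p = 0.045) and rho = 0.59 (permutation p = 0.063). *Itgb3* had r = 0.59 (permutation p = 0.054) and rho = 0.64 (permutation p = 0.041). *F13a1* had r = 0.52 (permutation p = 0.099) and rho = 0.58 (permutation p = 0.066), and *Thbs1* r = 0.29 (permutation p = 0.386) and rho = 0.35 (permutation p = 0.286).

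As a slope in limma, *Itga2b* rose by 0.46 on the log2 scale per log2 unit of *S100a8* (standard error 0.14, adjusted p = 0.0423 over 656 genes). The slopes of *Ppbp*, 0.29 (standard error 0.11, adjusted p = 0.0978), *Itgb3*, 0.25 (standard error 0.11, adjusted p = 0.152), *F13a1*, 0.26 (standard error 0.12, adjusted p = 0.216), and *Thbs1*, 0.16 (standard error 0.15, adjusted p = 0.589), did not pass. So 1 of the 5 genes passed, where 16.3% of all tested genes did, 103 (15.7%) with a positive and 4 (0.61%) with a negative slope, or 61 and 17 after the medians of the lungs were made equal. An unadjusted p under 0.05 was found for 24.2%. A share of 1 in 5 is near that background. There were 118 genes with a higher r than *Itga2b* and 139 with a higher r than *Ppbp*.

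**Figure D4:**
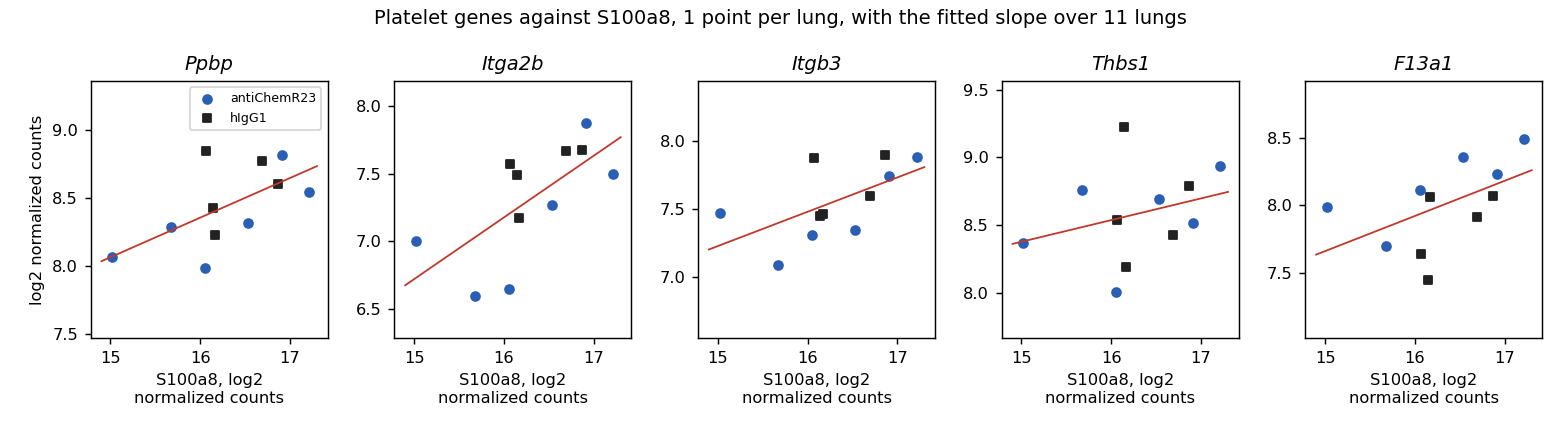
Each of the 5 genes (vertical axis, log2 normalized counts, same span in each panel) against S100a8 (horizontal axis, log2 normalized counts), with 1 point per lung, circles for antiChemR23 (n = 6), squares for hIgG1 (n = 5) and a line for the slope over the 11 lungs. The slope is steepest for *Itga2b* (0.46) and flattest for *Thbs1* (0.16), and points scatter widely around each line.

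The call of *Itga2b* depended on single lungs and on scaling. Its adjusted p was 0.106 without antiChemR23 mouse 10, 0.111 without antiChemR23 mouse 15, 0.0753 without hIgG1 mouse 3, 0.0554 without hIgG1 mouse 4 and 0.0911 without hIgG1 mouse 7 in limma fits, and 0.123 with equal medians. Quantile normalization left r at 0.20 (adjusted p = 0.795 from limma). *S100a8* was the highest or next highest gene of every lung, so quantile normalization left it only 2 possible levels. That setting therefore cannot show whether the relation depends on scaling. The median of all genes in a lung itself had r = 0.75 with *S100a8*. With equal medians, r with *S100a8* fell to 0.58 for *Itga2b*, 0.45 for *Ppbp*, 0.40 for *Itgb3*, 0.35 for *F13a1* and 0.10 for *Thbs1*. The adjusted p of these relations was then 0.123 to 0.854 from limma. The part of scaling in these relations was not tested beyond equal medians and quantile normalization. *Ppbp* passed without hIgG1 mouse 8 (r = 0.75, adjusted p = 0.0231 from limma). Without antiChemR23 mice 14 and 16, the 2 lungs farthest from the median of *S100a8*, r was 0.79 for *Itga2b*, 0.65 for *Itgb3*, 0.57 for *F13a1*, 0.55 for *Ppbp* and 0.03 for *Thbs1*.

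Within treatment groups, r with *S100a8* was 0.70 for both *F13a1* and *Itga2b*, 0.62 for *Ppbp*, 0.59 for *Itgb3* and 0.28 for *Thbs1*. With treatment in the model, the slope of *F13a1* was 0.30 (standard error 0.10, adjusted p = 0.0529 from limma) and that of *Itga2b* 0.42 (standard error 0.13, adjusted p = 0.0462), where 16.6% of genes passed. In the 6 antiChemR23 lungs alone, r was 0.79 for *F13a1* (exact permutation p = 0.0597), 0.75 for *Ppbp* (exact permutation p = 0.0833) and 0.71 for *Itga2b* (exact permutation p = 0.114). With *S100a8* in the model, the treatment difference of *F13a1* was 0.37 (unadjusted p = 0.0082, adjusted p = 0.297 from limma) and that of *Itga2b* -0.31 (adjusted p = 0.417).

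**Figure D5:**
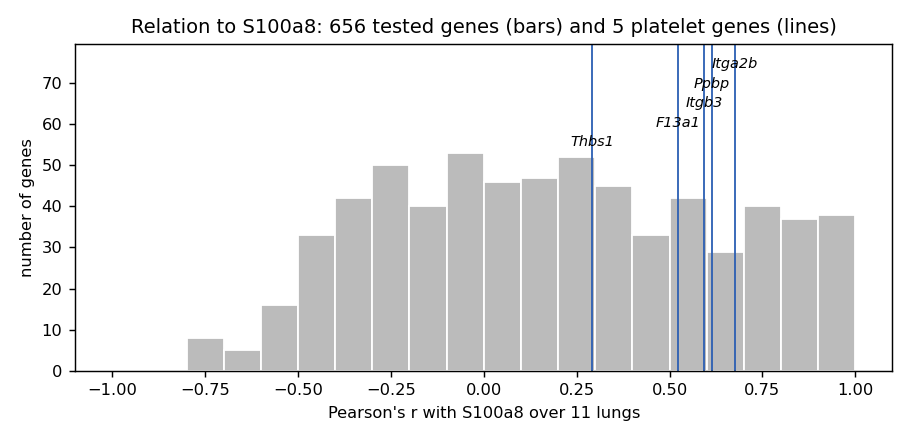
Number of genes (vertical axis) per 0.1 of Pearson's r with S100a8 over 11 lungs (horizontal axis) among 656 tested genes, with a line for each of the 5 genes. They lie between 0.29 (*Thbs1*) and 0.68 (*Itga2b*), and 118 genes lie above *Itga2b*.

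Markers of neutrophils moved with *S100a8*. Of 13 other tested genes of the neutrophil list, 13 had a positive slope that passed in limma, with a median r of 0.91. Their sum with *S100a8* was 42380 to 181569 normalized counts in antiChemR23 lungs and 85766 to 142717 in hIgG1 lungs. *S100a8* alone was at 33272 to 152136 and 68699 to 119529, so this sum mostly restates *S100a8*. With the mean of this list in place of *S100a8*, r was 0.67 for *Itga2b* (adjusted p = 0.0474 from limma), 0.66 for *Ppbp*, 0.57 for *Itgb3*, 0.46 for *F13a1* and 0.26 for *Thbs1*. The part of neutrophil RNA in the courses of these genes was not tested.

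Monocyte and macrophage markers, which are other known sources of *F13a1* and *Thbs1* RNA, summed to 5521 to 7036 normalized counts in antiChemR23 lungs and 4407 to 6260 in hIgG1 lungs over 16 genes. Of these, 13 had a positive r with *F13a1* and 7 with *Thbs1*, where 67.5% and 57.1% of all other tested genes did. Of the 16, 11 had a higher mean in antiChemR23 lungs, and 0 passed an adjusted p of 0.05. Their part in the higher mean of *F13a1* was not tested.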

How the data were processed

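Total RNA of 11 lungs was measured on the nCounter Sprint. The authors normalized the counts in nSolver, with settings not given in the sources used here, and deposited log2 values of 770 genes. The submitters' notes name DESeq2, which was not used here because the deposited values are not counts. Whole counts were estimated from the step between low values (under 60 normalized counts, tolerance 0.1 of a count). The 657 genes averaging 20 or more normalized counts were fitted for treatment by lmFit and trended eBayes of limma 3.58.1 (R 4.3.3), and p was adjusted by Benjamini-Hochberg (threshold 0.05). Relations used r and rho with 100000 resamples, exact enumeration for under 10 lungs, and the limma slope over 656 genes. Each lung counted as a single replicate in these tests, and limma moderated the variance between lungs across genes. For r with S100a8 held fixed, the values left after the fit on S100a8 were permuted, with no allowance for that fit.

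The 5 genes and the lists were chosen with earlier results of these data known. Named genes were the 5 and S100a8, the 3 genes with the highest r to each, and up to 4 genes per list with the smallest p, of which some are given only in counts. Alternatives were other filters, scalings, covariates and log2(value + 10), robust or weighted fits, exact tests, and leaving out each mouse. Those for pairs were chosen after the data were examined.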

Additional observations from a re-analysis of the deposited data

Results flagged for a closer look

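In 4 of 110 groups of values, 1 lung lay farther from the rest of its group than Dixon's limit allows, where chance gives about 1 in 20 groups. None of the 4 concerned the 5 platelet genes or S100a8. *Plau* was at 7.68 log2 normalized counts in antiChemR23 mouse 9 and at 7.20 to 7.38 in the other antiChemR23 lungs. *Muc1* was at 11.77 in antiChemR23 mouse 15 and at 11.39 to 11.49 in the others. In hIgG1 mouse 6, *Mmp9*, a neutrophil gene, was at 9.50, below the 9.85 to 9.99 of the other hIgG1 lungs. In hIgG1 mouse 8, *Cd8a*, a T cell gene, was at 6.96, above the 4.32 to 4.76 of the other hIgG1 lungs.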

How the results depend on the processing

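The treatment differences of the 5 genes kept their direction under the alternatives run, except *Thbs1* without antiChemR23 mouse 9 or hIgG1 mouse 6, and 0 passed an adjusted p of 0.05 (adjusted p 0.297 to 0.998 from limma). The filters, robust eBayes and exact tests leave the difference itself as it is. With a mouse left out, *Thbs1* ran from -0.199 to 0.0589. The count of passing genes among all tested was 0 in limma, 1 (*Cdkn1a*) with quantile normalization, 3 with S100a8 as a covariate (*Cdkn1a*, *Cx3cr1* and *Oas2*) and 0 to 3 with a mouse left out (*Cdkn1a*, *Cx3cr1* and *Rrad* without antiChemR23 mouse 10). These genes were named after their values were seen.
Of 105 recomputed r with S100a8, 10 no longer passed, 1 came to pass and 1 turned without passing. That of *Itga2b* no longer passed with no filter (0.68), equal medians (0.58), quantile normalization (0.20), Spearman's rho (0.77) and the antiChemR23 mice alone (0.71), and with a mouse left out it ran from 0.63 to 0.72. That of *Ppbp* then ran from 0.49 to 0.75. Quantile normalization turned *F13a1* (-0.058). It left S100a8, the highest or next highest gene of every lung, only 2 possible levels, 15.26 and 16.32, against 15.02 to 17.22 as deposited. Quantile normalization therefore cannot show how relations to S100a8 depend on scaling. The count of genes related to S100a8 was 107 in limma, 3 with quantile normalization, 47 without the 2 farthest mice and 79 to 110 with a mouse left out.
Of 180 recomputed r of pairs, 18 turned, all in pairs with r under 0.25 in size. *Ppbp* with *F13a1* was 0.19 with treatment as a covariate, 0.43 in antiChemR23 mice and 0.19 without the 2 farthest, and *Thbs1* with *F13a1* 0.25 and 0.32 in the last 2. With equal medians, quantile normalization, without the 2 farthest and with S100a8 as a covariate, *Itga2b* with *F13a1* was -0.084, -0.068, -0.036 and -0.39, and *Itgb3* with *F13a1* -0.024, -0.017, -0.046 and -0.10. *Itgb3* with *Thbs1* was -0.037 with equal medians and -0.072 without the 2 farthest. With a mouse left out, the ranges were -0.20 to 0.11 (*Ppbp* with *F13a1*), -0.092 to 0.23 (*Itga2b* with *F13a1*) and -0.51 to 0.20 (*Thbs1* with *F13a1*). Apart from the loss of mice, the cause was not tested. Mice are numbered apart in the groups. No paired analysis was possible because no number occurs in both. Counting error (up to 0.15 for *Itga2b*) limits small differences.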

Other observations

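Correlations of *Ppbp*, *Itga2b* and *Itgb3* with lists of other cell types are given as a description over 11 lungs that share 1 scaling, and they differed in sign among the lists. Of 5 tested genes of the lung epithelium list (*Cdh1*, *Epcam*, *Muc1*, *Cxcl15* and *Foxj1*), 0 had a positive r with *Itga2b*, with a median r of -0.71, and the medians were -0.66 with *Ppbp* and -0.61 with *Itgb3*. Over all tested genes the medians were 0.10, 0.07 and 0.20. *Epcam*, an epithelial adhesion molecule, was at 8.78 ± 0.14 log2 normalized counts in antiChemR23 lungs and 8.62 ± 0.08 in hIgG1 lungs (SD, n = 6 and 5, adjusted p = 0.495 from limma). Of 6 tested B cell genes, 0 had a positive r with *Ppbp*, *Itga2b* or *Itgb3* (medians -0.46, -0.47 and -0.15), and all 6 had a higher mean in antiChemR23 lungs, with 0 passing an adjusted p of 0.05. *Cd79b*, part of the B cell receptor, differed by 0.62 (standard error 0.22). All 14 tested genes of the neutrophil list had a positive r with each of *Ppbp*, *Itga2b*, *Itgb3* and *F13a1*, and 13 of them with *Thbs1*. A positive r was found for 54.8% (*Ppbp*), 57.7% (*Itga2b*), 63.0% (*Itgb3*), 67.5% (*F13a1*) and 57.1% (*Thbs1*) of all other tested genes. The 14 include *S100a8*, and the other 13 had a median r of 0.91 with it. They are therefore not 14 separate observations and largely restate the relation to *S100a8*. The medians with *Ppbp*, *Itga2b* and *Itgb3* were 0.39, 0.17 and 0.40 for 10 T and NK cell genes and -0.06, 0.01 and 0.13 for 11 endothelial genes.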
